A study of Mus musculus with 11 samples.

Results

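The transcripts described here are 10 genes of the NF-kB pathway in mouse CD8+ Tregs, chosen by name from a table of 54532 genes. They are the 5 genes of the NF-kB subunits (Nfkb1, Nfkb2, Rela, Relb and Rel) and 5 genes whose products restrain the pathway (Nfkbia, Tnfaip3, Tnip1, Cyld and N4bp1). The list was drawn up with the age difference of these data in view, so the values of the 10 genes by age are a description and carry no test. The cells were splenic T cells of wild-type (WT) mice sorted as CD8+CD44+Ly49+CD122+, in 11 libraries made with a high-sensitivity SMARTER-seq kit. Of these, 3 were from young males, 2 from middle-aged males, 3 from young females and 3 from middle-aged females. Young is 2 to 3 months and middle-aged, which the labels call Old, is 10 to 12 months. No treatment is named in the labels of either group, and each library had a replicate number of 1 to 3 within its age and sex.

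NF-kB transcription factors are dimers of the products of the 5 subunit genes. In resting T cells the dimers are held in the cytoplasm by IkB proteins, of which Nfkbia encodes IkB-alpha, and by the precursors p105 and p100 that Nfkb1 and Nfkb2 encode. Signals from the T cell receptor, TNF family receptors or Toll-like receptors pass through ubiquitin chains to the IKK kinase complex, which marks IkB for destruction, and the freed dimers enter the nucleus. The brakes act at different steps. Tnfaip3 (A20) and Cyld are enzymes that edit or remove ubiquitin chains, Tnip1 (ABIN1) is a ubiquitin-binding partner of A20, and N4bp1 is an RNase-domain protein that binds the NEMO subunit of IKK and is cut by caspase-8 and by Malt1. Nfkbia and Tnfaip3 are themselves classic targets of NF-kB.

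The kappa-B consensus, the base pattern that NF-kB dimers bind (GGG, a purine, any base, A or T, a pair of pyrimidines, CC), was sought on both strands from 250 bases before to 50 bases after the start of transcription. Sequences were those of RefSeq (GRCm38.p6), which held 8 of the 10 genes, all but Nfkb1 and Relb. The consensus stood in 6 of these 8, in 11 of the 68 entries found for other pathway genes, and in 1480 of all 32851 promoter entries (4.51%). Rela and N4bp1 were without a match in this window. The stretches around the matches are shown beside the N4bp1 stretch because N4bp1 is the brake without one. All lie before the RefSeq start of transcription, run 5′ to 3′ along the gene's strand, and carry the matches in capitals, where overlapping matches run together.
Nfkbia: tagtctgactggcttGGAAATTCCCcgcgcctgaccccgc
Tnip1: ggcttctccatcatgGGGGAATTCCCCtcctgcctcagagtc
Tnfaip3: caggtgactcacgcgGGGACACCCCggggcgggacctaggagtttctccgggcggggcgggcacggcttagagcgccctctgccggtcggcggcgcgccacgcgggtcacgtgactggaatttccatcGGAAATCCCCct
Cyld: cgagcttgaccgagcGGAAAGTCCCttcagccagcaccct
Nfkb2: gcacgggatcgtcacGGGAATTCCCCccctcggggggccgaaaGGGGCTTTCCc
Rel: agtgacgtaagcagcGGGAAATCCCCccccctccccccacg
N4bp1: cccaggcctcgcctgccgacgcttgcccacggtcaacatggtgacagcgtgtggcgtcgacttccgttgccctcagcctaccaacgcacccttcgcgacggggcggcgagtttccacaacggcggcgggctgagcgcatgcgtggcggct

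These stretches lie at chr12:55492652-55492691 (minus strand) for Nfkbia, chr11:54962972-54963013 (minus) for Tnip1, chr10:19015411-19015550 (minus) for Tnfaip3, chr8:88696858-88696897 (plus) for Cyld, chr19:46304683-46304736 (plus) for Nfkb2, chr11:23771036-23771076 (minus) for Rel and chr8:86885259-86885408 (minus) for N4bp1. The N4bp1 stretch is the 150 bases before its start. For Tnfaip3 the RefSeq start lay 247 bases inside the gene of the count table, so its stretch falls within that gene. For the others of the 10 genes the distance between the starts was at most 58 bases. Among other pathway genes with a match it was 65085 bases for Tnip3, 1458 for Bcl10 and 993 for Sod2. A match is a description of letters, not a site shown to be bound. Of the NF-kB targets followed below, the consensus stood in 5 of the 14 with an entry, so targets can lack it in this window. Whether NF-kB controls N4bp1 was not tested.

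Total counts were 6135736 and 8421396 in young male 1 and young female 1, and 15662717 to 24394532 in the other 9 libraries. Libraries differed by replicate number: 26.3% of the 13129 genes tested did so at an adjusted p under 0.05 (edgeR, with sex and age in the model), and 25.1% had no overlap between the 4 libraries numbered 1 and the other 7. What the number stands for is not given in the labels. Summed CD8 T cell markers were high in every library, at 7670 to 14400 CPM (counts scaled to library size with TMM factors). Of the sort markers in that sum, Cd8a was at 642 to 1020 CPM in every library. Il2rb (CD122) was at 552 CPM in young male 1, 1290 CPM in young female 1 and 1960 to 2620 CPM in the others. Cd44 was at 42.3 CPM in young male 1 and 98.4 to 166 CPM in the others. Summed B cell markers (8 genes) were at 130 to 404 CPM in young libraries and at 178 to 613 CPM in middle-aged libraries. Summed myeloid markers (9 genes) were at 46 to 208 CPM in young libraries and at 155 to 330 CPM in 4 middle-aged libraries, but at 2680 CPM in middle-aged female 2. Summed NK cell markers (9 genes) were at 525 to 1210 CPM in young libraries and at 197 to 898 CPM in middle-aged libraries. Summed erythroid cell and platelet markers (8 genes) were at 27.8 to 155 CPM in young and 1.05 to 31.5 CPM in middle-aged libraries, and summed CD4 T cell markers (5 genes) were at 1.39 to 32.5 CPM and 11.5 to 33.8 CPM. Plasma cell markers (6 genes) summed to 88.1 to 133 CPM and 117 to 373 CPM, and dendritic cell markers (6 genes) to 5.06 to 73.7 CPM and 10.2 to 58.0 CPM. The NK cell list holds Klra4 and Klra8, which belong to the Ly49 family used in the sort. It also holds Gzma, Tyrobp and Fcer1g, which are not confined to NK cells. Gzma was at 215 to 472 CPM in young libraries. It was at 335 CPM in middle-aged female 2 and at 23.5 to 43.8 CPM in the other middle-aged libraries. Fcer1g overlapped between the ages, at 68.5 to 138 CPM in young and 41.1 to 136 CPM in middle-aged libraries. What part other cell types have in the values below was not tested. In such sorted bulk samples, fewer cells of a type and less RNA per cell cannot be told apart.

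N4bp1 was the gene of the 10 whose age groups lay apart. N4bp1 (ENSMUSG00000031652, chromosome 8, 86808160 to 86885258 of GRCm38, minus strand) had 26.0, 18.5 and 31.9 CPM in young males 1, 2 and 3 and 17.5, 23.3 and 22.6 CPM in young females 1, 2 and 3. It had 52.5 and 64.2 CPM in middle-aged males 1 and 2 and 53.2, 53.4 and 55.2 CPM in middle-aged females 1, 2 and 3. Every middle-aged library was above every young library, and males and females of an age were intermixed. Young libraries averaged 23.3 ± 5.24 CPM (SD, n = 6) and middle-aged libraries 55.7 ± 4.87 CPM (SD, n = 5), and the fit with sex gave a log2 fold change of middle-aged over young of 1.28 (standard error, SE, 0.22). At least 126 reads lay behind each of these values, which is the depth that counting error rests on. Groups without overlap were found for 1 of the 10 genes, and for 1.31% of all genes tested (1.01% with middle-aged above young). Because N4bp1 was on the list with this contrast in view, nothing is read from that count.

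**Figure D1:**
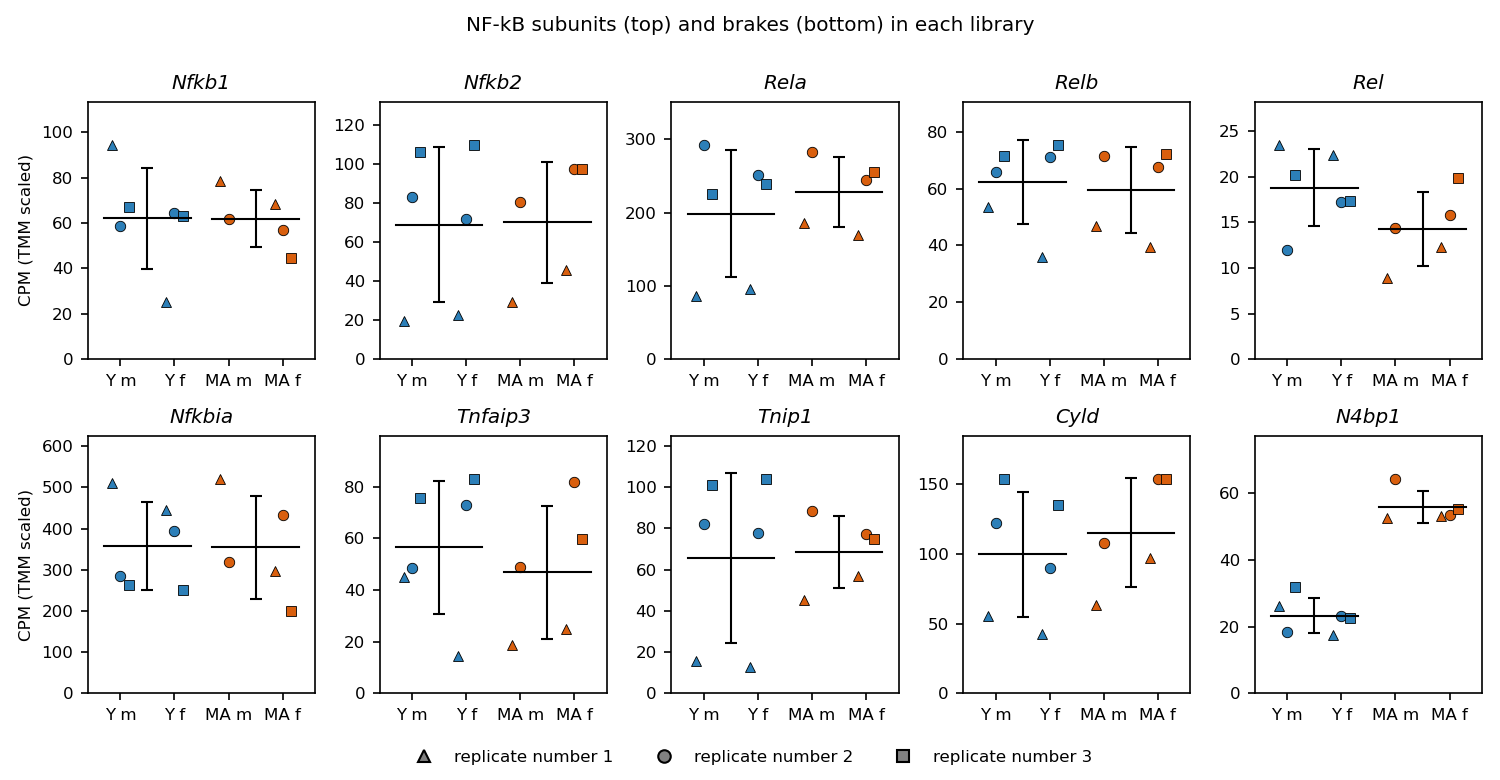
CPM (y axis, from 0) of the 5 subunit genes (top row) and the 5 brake genes (bottom row) in young (Y, blue) and middle-aged (MA, orange) males (m) and females (f); symbols mark the replicate number, and the black line and bar give the mean and SD of each age group (n = 6 and 5). The 5 middle-aged libraries sit at 52.5 to 64.2 CPM for N4bp1, above all young libraries, while the age groups overlap for the other 9 genes.

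Within replicate numbers 1, 2 and 3 the middle-aged mean was higher by 1.30, 1.49 and 1.04 in N4bp1's log2 CPM. In number 3 that mean is middle-aged female 3 alone, set against a young male and a young female. The sign was the same in each number for 2 of the 10 genes (N4bp1 and Cyld) and for 33.1% of all genes. The N4bp1 log2 fold change was 1.20 (SE 0.41) in males alone and 1.36 (SE 0.31) in females alone. It was 1.28 without middle-aged female 2, the library with the high myeloid sum, 1.21 in the 9 libraries with over 10000000 counts, and 1.28 in the 7 libraries numbered 2 or 3. In middle-aged female 2 the NK cell sum was 898 CPM, within the range of the young libraries. Its highest genes there were Gzma (335 CPM), Tyrobp (188 CPM) and Fcer1g (136 CPM), so the sum does not measure NK cells alone. N4bp1 in middle-aged female 2 was at 53.4 CPM, with the other middle-aged libraries. That is 1 library, and the part of other cell types in the N4bp1 difference was not tested.

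The 4 other brakes overlapped between the ages. Nfkbia (chromosome 12, 55489410 to 55492647), the IkB that NF-kB itself induces, ranged from 250 to 511 CPM in young (median 340 CPM) and stood at 521, 318, 298, 434 and 200 CPM in middle-aged male 1, male 2, female 1, female 2 and female 3. Both ages spanned nearly the same range, and the log2 fold change was -0.01 (SE 0.29). Tnfaip3 (chromosome 10, 19000910 to 19015657) ranged from 14.3 to 83.1 CPM in young (median 60.8 CPM) and had 18.9, 49.0, 24.8, 81.9 and 59.7 CPM in the same middle-aged libraries, a log2 fold change of -0.34 (SE 0.48). In each age group the lowest Tnfaip3 value was in a library numbered 1. Tnip1 (chromosome 11, 54910785 to 54962917) ranged from 12.8 to 104 CPM in young and from 45.1 to 88.2 CPM in middle-aged libraries. Its log2 fold change was 0.06 (SE 0.52), the largest error of the 10 genes. Cyld (chromosome 8, 88697028 to 88751945), which lies on the same chromosome as N4bp1, was at 42.4 to 154 CPM in young libraries and at 63.4 to 154 CPM in middle-aged libraries, a log2 fold change of 0.18 (SE 0.38).

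Of the subunits, Rela (chromosome 19, 5637483 to 5648130), which encodes p65, the main activating subunit, ranged from 85.7 to 293 CPM in young (median 233 CPM) and from 170 to 283 CPM in middle-aged libraries (median 244 CPM). Its log2 fold change was 0.21 (SE 0.34). Rel (chromosome 11, 23736847 to 23770970), which encodes c-Rel, a subunit used by activated lymphocytes, was at 12.0 to 23.5 CPM in young libraries and at 8.89, 14.4, 12.3, 15.8 and 19.8 CPM in middle-aged male 1, male 2, female 1, female 2 and female 3. It had the lowest log2 fold change of the 10 genes, -0.43 (SE 0.31), with overlapping groups. Within replicate number 1 the Rel difference was -1.12, and within numbers 2 and 3 it was 0.07 and 0.08. The number 3 value rests on middle-aged female 3 alone on the middle-aged side. Without the libraries numbered 1 the log2 fold change of Rel was -0.03. Nfkb1 (chromosome 3, 135584655 to 135691547; log2 fold change 0.06, SE 0.28), Nfkb2 (chromosome 19, 46304737 to 46312090; -0.02, SE 0.50) and Relb (chromosome 7, 19606217 to 19629438; -0.06, SE 0.26) had ages that overlapped over most of their range. Psd, a gene on the opposite strand that overlaps Nfkb2, had counts equal to 3.98% of those of Nfkb2, and whether reads were counted by strand is not stated in the sources used here.

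Over the list, the log2 fold change was above 0 for 5 of the 10 genes and below 0 for 5, with a median of 0.02, beside 50.4% above 0 and a median of 0.0028 over all genes tested. By edgeR's quasi-likelihood test 0 of the 10 had an adjusted p under 0.05, and 1, N4bp1, had an unadjusted p under 0.05. DESeq2's Wald test, which called 0.860% of all genes, and limma voom, which called 1.05%, each called 1 of the 10, N4bp1. Over all genes the quasi-likelihood test called 0.0229% after adjustment, and 2.99% had an unadjusted p under 0.05. The rule used this contrast, so these counts describe the list and nothing is read from them.

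**Figure D2:**
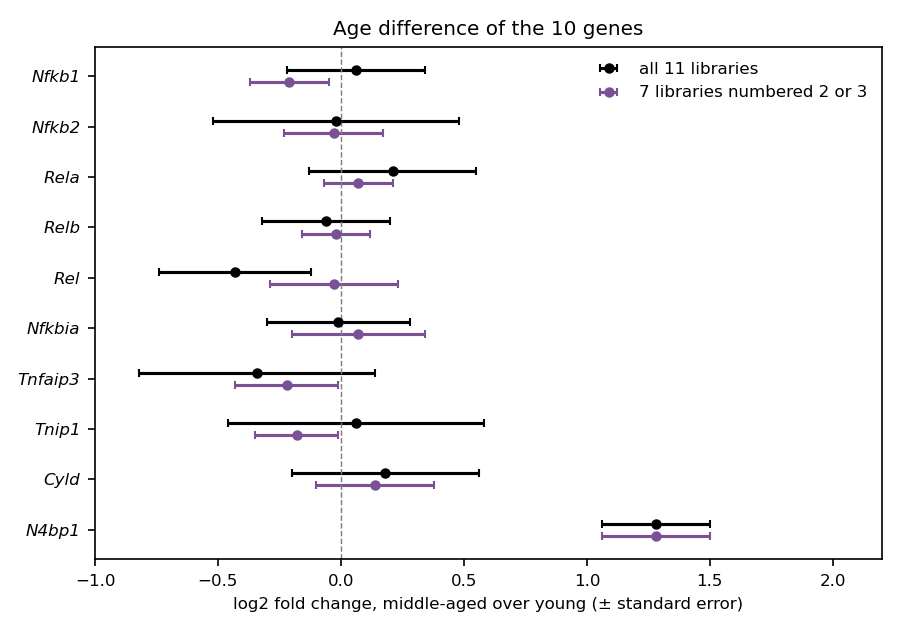
Log2 fold change of middle-aged over young CD8+ Tregs (x axis) for each of the 10 genes, with bars of 1 standard error, from all 11 libraries (black) and from the 7 libraries numbered 2 or 3 (purple). N4bp1 stands at 1.28 in both fits, and Rel moves from -0.43 to -0.03.

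Read per length, the 10 genes differed widely in level. Levels between genes were compared as CPM per kilobase of the gene length given in the count table. The order depends on those lengths: Nfkb1 and Relb had 62.2 and 62.3 CPM in young libraries, at 12061 and 3885 bases. In young CD8+ Tregs Nfkbia was highest at 222 ± 66.9 CPM per kilobase (SD, n = 6), followed by Rela at 73.0 ± 31.8. Nfkb2, Tnip1 and Relb followed at 20.9 ± 12.0, 18.5 ± 11.6 and 16.0 ± 3.83, and their ranges over the libraries overlapped. Cyld, Tnfaip3 and Nfkb1 came next at 7.94 ± 3.57, 7.84 ± 3.56 and 5.15 ± 1.84, again with overlapping ranges. Rel was at 2.51 ± 0.561 and N4bp1 last at 1.91 ± 0.430. In middle-aged CD8+ Tregs the means of the first 8 genes fell in the same order, although Nfkb2 was above Tnip1 in 2 and Tnfaip3 above Nfkb1 in 3 of the 5 libraries, so neither pair was ordered there. N4bp1 at 4.57 ± 0.399 CPM per kilobase (SD, n = 5) stood close to Nfkb1 at 5.14 ± 1.05 and above Rel at 1.91 ± 0.544. N4bp1 was above Rel in 0 of 6 young and in 5 of 5 middle-aged libraries. Nfkb1 was above N4bp1 in 3 of the 5 middle-aged libraries, so those 2 genes were not ordered either.

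Sex and the interaction of age with sex were not used to choose the genes, and were tested. Females and males differed at an adjusted p under 0.05 in 0 of the 10 genes by edgeR (0.0381% of all genes did), in 0 at an unadjusted p under 0.05 (0.754% of all genes), and DESeq2 and limma voom also called 0. Log2 fold changes of females over males ran from -0.43 for Nfkb1 (SE 0.28, adjusted p = 1.00 by edgeR) to 0.31 for Tnfaip3 (SE 0.48, adjusted p = 1.00). The age difference did not differ detectably between the sexes for any of the 10 genes (edgeR interaction, adjusted p = 1.00 for each; 0 genes at an unadjusted p under 0.05, and 0 called by DESeq2 or limma voom). For N4bp1 the interaction was 0.15 (SE 0.45). Of all genes, 0.00% had an interaction with an adjusted p under 0.05 and 1.20% with an unadjusted p under 0.05. On simulated data the interaction test missed most of the planted changes and found fewer than the age or sex test. The lack of calls therefore does not show that the age difference is the same in both sexes.

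Replicate number was also not used to choose the genes. Of the 10 genes, 7 differed by replicate number at an adjusted p under 0.05 (edgeR), where 26.3% of all genes did. At an unadjusted p under 0.05 the same 7 stood beside 38.5% of all genes. This test was added after the data were seen. Nfkb2 (adjusted p = 0.000895), which encodes the p100 precursor, had 19.7, 22.8, 29.3 and 45.6 CPM in young male 1, young female 1, middle-aged male 1 and middle-aged female 1, and 72.1 to 110 CPM in the 7 other libraries. Tnip1 (adjusted p = 0.0299) had 15.6, 12.8, 45.1 and 56.8 CPM in the same 4 libraries and 74.9 to 104 CPM in the others. In both genes the 4 libraries numbered 1 lay below all the others, and the young ones of the 4 lay lowest. Rela (85.7 to 186 against 226 to 293 CPM; adjusted p = 0.009), Relb (36.1 to 53.7 against 65.8 to 75.5 CPM; adjusted p = 0.0134) and Tnfaip3 (14.3 to 45.2 against 48.6 to 83.1 CPM; adjusted p = 0.0333) showed the same separation. Libraries numbered 1 did not overlap the others for 5 of the 10 genes and for 25.1% of all genes. By mean log2 CPM, 5 of the 10 genes were lower in libraries numbered 1 by over 1 log2 unit (27.6% of all genes) and 0 were higher by that much (10.2%).

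Cyld also differed among the numbers (adjusted p = 0.00758 by edgeR). It had 42.4 to 97.4 CPM in libraries numbered 1 and 90.2 to 154 CPM in the others, with overlap. Nfkbia differed among the numbers too (adjusted p = 0.0442 by edgeR). It had 298 to 521 CPM in libraries numbered 1 and 200 to 434 CPM in the others, higher by 0.53 in mean log2 CPM. Its values in number 3 (263, 250 and 200 CPM) also lay below those in number 2 (286, 318, 393 and 434 CPM). N4bp1 (adjusted p = 0.595), Nfkb1 (0.98) and Rel (0.842) did not pass the test, and N4bp1 differed by -0.15 in mean log2 CPM between libraries numbered 1 and the others. Summed genes of the response to cell isolation (10 genes, such as Fos, Jun and Dusp1) were highest in young male 1, at 4120 CPM, where Nfkbia was at 511 CPM. In middle-aged male 1, where Nfkbia reached 521 CPM, they were at 1950 CPM, and in middle-aged female 2 they were at 2870 CPM with Nfkbia at 434 CPM. The sums did not follow Nfkbia throughout: young female 1 had 746 CPM with Nfkbia at 444 CPM, and middle-aged male 2 had 1910 CPM with Nfkbia at 318 CPM. Their part in the level of Nfkbia was not tested.

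**Figure D3:**
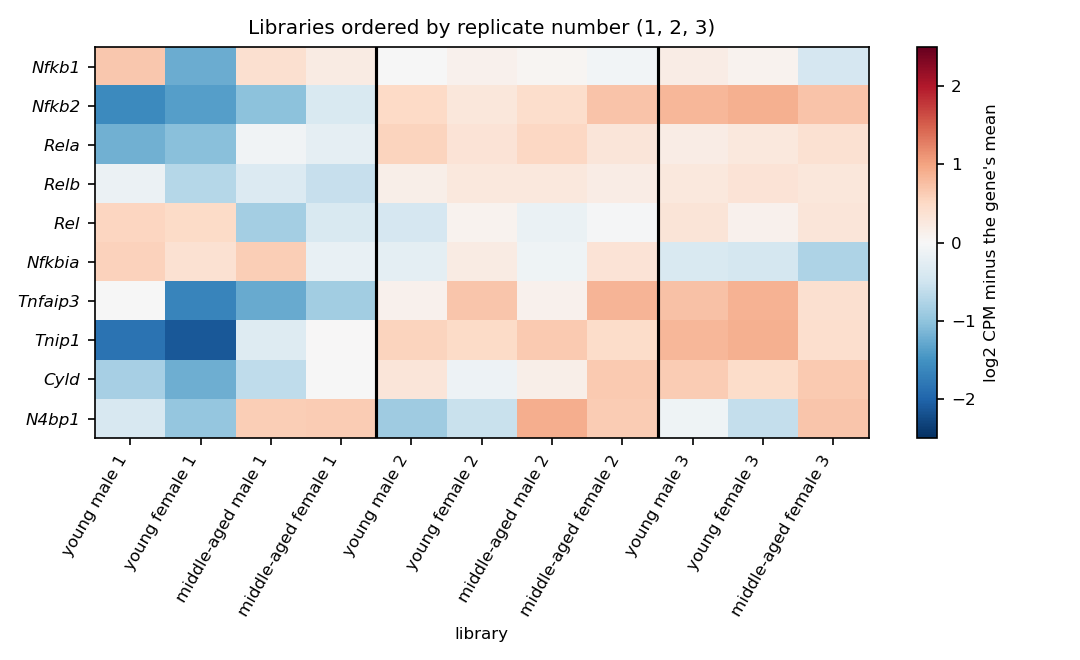
Log2 CPM of each gene minus its mean over the 11 libraries (colour, in log2 units), with libraries on the x axis ordered by replicate number and black lines between numbers 1, 2 and 3. Nfkb2, Rela, Relb, Tnfaip3 and Tnip1 are lower in all 4 libraries numbered 1 than in the other 7, and N4bp1 is higher in the middle-aged than in the young libraries of each number.

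The rest of the pathway was followed through 84 genes that were not on the list of 10, taken by role from receptors to targets, of which 78 could be tested. By edgeR's quasi-likelihood test 0 of the 78 had an adjusted p under 0.05. At an unadjusted p under 0.05, 5 were higher and 0 lower in middle-aged CD8+ Tregs, where 2.00% of all genes were higher and 0.990% lower. DESeq2 called 2 of the 78 (Bcl3 and Ccl5), beside 0.860% of all genes, and limma voom 3 (Bcl3, Ier3 and Ccl5), beside 1.05%. Log2 fold changes of the 78 were above 0 for 51 and below 0 for 27, with a median of 0.11. Over all genes tested 50.4% were above 0, with a median of 0.0028. The 84 genes were also chosen with earlier results of these data known, so nothing is read from these counts.

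Bcl3, which encodes an IkB family protein that works in the nucleus with p50 and p52 dimers, was the gene of the 78 whose ages lay apart, with middle-aged above young (1.01% of all genes). It had 9.59, 26.9 and 36.2 CPM in young males 1, 2 and 3 and 16.0, 25.7 and 27.9 CPM in young females 1, 2 and 3. It had 61.5 and 63.6 CPM in middle-aged males 1 and 2 and 51.1, 66.1 and 70.6 CPM in middle-aged females 1, 2 and 3. All middle-aged libraries were above all young libraries, with means of 62.6 ± 7.25 CPM (SD, n = 5) and 23.7 ± 9.45 CPM (SD, n = 6). The log2 fold change was 1.40 (SE 0.31, adjusted p = 0.321 by edgeR), which did not pass the test. DESeq2 gave an adjusted p of 0.0052 and limma voom of 0.00637, within a range of 0.0052 to 1.00 over 23 alternative fits, all of which kept the direction. Within replicate numbers 1, 2 and 3 Bcl3 was higher by 2.17, 1.30 and 1.15 in log2 CPM, where number 3 has middle-aged female 3 as its only middle-aged library. Without middle-aged female 2 the log2 fold change of Bcl3 was 1.38. The kappa-B consensus stood once in the Bcl3 window, in the bases after its start of transcription. The other IkB genes Nfkbib, Nfkbie, Nfkbid and Nfkbiz had log2 fold changes of -0.05, 0.27, 0.16 and 0.49 and unadjusted p above 0.05.

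Among 18 targets of NF-kB, Ier3, an early gene tied to cell survival, had 7.78 to 19.1 CPM in young (median 15.1 CPM) and 29.9, 41.8, 15.9, 44.8 and 34.6 CPM in middle-aged male 1, male 2, female 1, female 2 and female 3. Its log2 fold change was 1.23 (SE 0.35, adjusted p = 0.542 by edgeR), and middle-aged female 1 was the library within the young range. Ccl5, a chemokine stored by memory CD8+ T cells, had 965 to 1750 CPM in young and 4190, 2550, 3500, 1320 and 1900 CPM in the same middle-aged libraries, a log2 fold change of 1.21 (SE 0.31, adjusted p = 0.457 by edgeR). Over the 23 alternative fits the adjusted p ran from 0.0163 to 1.00 for Ier3 and from 0.014 to 1.00 for Ccl5. The Ccl5 log2 fold change itself moved, to 1.76 (SE 0.35) in males alone, 0.76 (SE 0.43) in females alone and 0.86 (SE 0.23) in libraries numbered 2 or 3, and its interaction of age with sex did not pass the test. Bcl2l1, which encodes the survival protein Bcl-xL, had a log2 fold change of 0.41 (SE 0.19, adjusted p = 1.00 by edgeR). The remaining 15 targets had unadjusted p above 0.05, among them Icam1 (log2 fold change 0.34) and Irf1 (0.26). Of the receptors, 8 of 12 were tested, and Il18r1, a receptor chain for IL-18, had a log2 fold change of 0.54 (SE 0.23, adjusted p = 1.00 by edgeR). Without middle-aged female 2 the Il18r1 value was 0.68.

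Between receptor and subunit, no gene passed the test. The 15 adaptors and ubiquitin ligases had log2 fold changes of -0.15 to 0.48, the 5 genes of the T cell receptor arm of -0.14 to 0.24, and the 10 kinase genes of -0.46 to 0.49, with 0 genes at an unadjusted p under 0.05 in each group. The gene with the highest mean in each was Rbck1, a subunit of the linear ubiquitin ligase, at 0.00 (SE 0.31), Prkcq, the kinase PKC-theta, at 0.00 (SE 0.28), and Ikbkb, the catalytic kinase IKK-beta, at 0.01 (SE 0.34). Ikbkg, which encodes the NEMO protein that N4bp1 binds, was at 0.18 (SE 0.30), and Casp8 and Malt1, whose proteases cut N4bp1, were at 0.05 (SE 0.21) and -0.14 (SE 0.38). The 12 other brakes ran from -0.32 for Tax1bp1, an adaptor of A20, to 0.29 for Otulin, which removes linear ubiquitin chains. Of the RNase-domain relatives of N4bp1, Khnyn was at 0.20 (SE 0.69) and Zc3h12a (Regnase-1) at -0.10 (SE 0.45). N4bp2, which was listed with them but shares a name with N4bp1 and not the RNase domain, was at -0.23 (SE 0.35). Each of these had an edgeR adjusted p of 1.00, and the difference from N4bp1 itself was not tested.

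**Figure D4:**
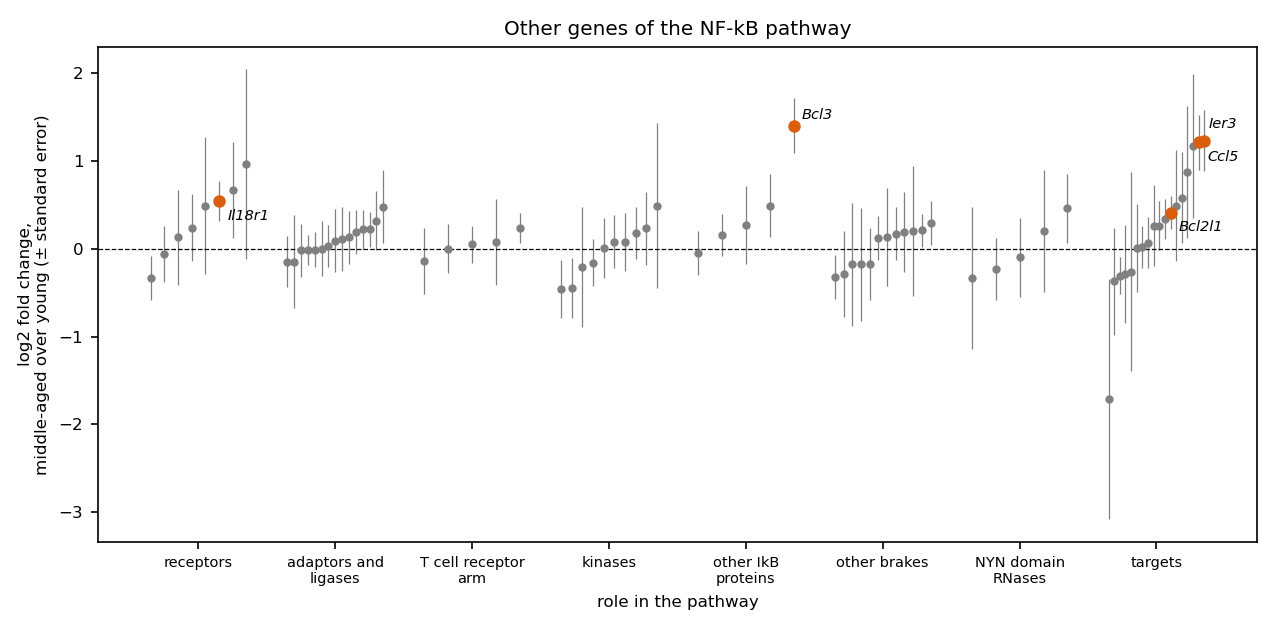
Log2 fold change of middle-aged over young (y axis, bars of 1 standard error) for the 78 tested pathway genes, grouped by role on the x axis and sorted within a group; orange points have an unadjusted p under 0.05. Bcl3 (1.40), Ier3 (1.23) and Ccl5 (1.21) are the highest of the 5 orange points, and adaptors, T cell receptor arm and kinases lie between -0.46 and 0.49. The group drawn as NYN domain RNases also holds N4bp2, which is not such an RNase.

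The genes most like N4bp1 were named by Pearson's r of log2 CPM, as a description over 11 libraries that differ in depth and in age group. Over all libraries these included Pawr (r = 0.94), Fcgr2b (0.937), Socs3 (0.922) and Gm10461 (0.92), and since N4bp1's age groups lie apart, these values mix the difference between ages with the spread within them. Pawr and Gm10461 had means of 0.797 and 1.05 CPM. Socs3, a feedback inhibitor of cytokine signalling, had means of 85.4 CPM in young libraries and 177 CPM in middle-aged libraries. After the mean of each age and sex group was subtracted the closest genes were others: Rbbp6 (r = 0.906), Zscan2 (0.904), Ints6l (0.899), Gm4070 (0.882) and Disc1 (0.881). On that scale the other 9 genes of the list had r with N4bp1 from -0.26 (Nfkbia) to 0.60 (Tnfaip3).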

How the data were processed

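RNA-seq of sorted CD8+ Tregs was compared between young and middle-aged mice. The authors deposited raw counts per Ensembl gene with coordinates of GRCm38 and a gene length; per the labels the processing notes name kallisto and mm10, and the counting rule, strandedness and test are not given in the sources used here. All 11 sample columns were used. Counts were scaled by TMM in edgeR 4.0.16 (R 4.3.3), 13129 genes passed filterByExpr (minimum count 10, minimum total 15), and age and sex were fitted with glmQLFit (robust) and glmQLFTest. P values were adjusted by Benjamini-Hochberg over all genes, at a threshold of 0.05. Log2 CPM used a prior count of 2. The study calls its sequenced columns biologically independent; the labels do not tie libraries to mice, so p-values measure the spread between these libraries. Alternatives used DESeq2 1.42.0, limma voom 3.58.1, other filters, factors and subsets. The genes and lists were chosen with earlier results of these data known. Genes were named by rule: the 10 genes, pathway genes with an unadjusted p under 0.05, the highest expressed gene of each role without one, and the 5 genes most like N4bp1 by each measure, of which 1 is not reported here. Nfkbib, Nfkbie, Nfkbid, Nfkbiz, Icam1, Irf1, Ikbkg, Casp8, Malt1, Otulin, N4bp2 and Zc3h12a lie outside the rule and were chosen after their values were seen. The steps were tested on simulated data, where DESeq2 made a larger share of false calls than edgeR or limma voom, a limit on the DESeq2 calls given here.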

Additional observations from a re-analysis of the deposited data

Results flagged for a closer look

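N4bp1 in middle-aged male 2 was at 64.2 CPM, apart from the other 4 middle-aged libraries at 52.5 to 55.2 CPM, a gap that was 0.765 of the group's range. It was the only such library among the 20 sets of values checked (10 genes in 2 age groups), and chance gives about 1 in 20. Without it the log2 fold change of N4bp1 was 1.25.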

How the results depend on the processing

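The log2 fold change of N4bp1 ran from 1.20 to 1.38 over 12 alternatives and from 1.21 to 1.37 when each library was left out. By edgeR 0 of the 10 genes were called, and 1, N4bp1, was called by DESeq2, by limma voom and with a replicate block shared by both sexes. Of the 78 other pathway genes, 0 were called by edgeR, 2 by DESeq2, 3 by limma voom and 1, Bcl3, with the shared replicate block. Leaving out each library gave 0 calls in both lists (range 0 to 0). With the replicate block within sex 0 genes of either list were called. The block is given as an alternative only, since the labels do not say what the number stands for. Same-numbered libraries correlated from 0.025 to 0.558 in their deviations from group means, and other pairs from -0.508 to 0.397. Of the 11 libraries, 9 correlated best with a library of their own number. Deviations within a group are tied to each other, so these values do not decide what the number stands for. Over all genes the count of calls was 3, against 112 in DESeq2, 138 in limma voom, 19 with the shared block, 2 with the block within sex, 17 with at least 1 count in any library, 6 in libraries over 10000000 counts, 5 with at least 10 counts in every library, 5 without sex, and 0 in each sex alone. Calls by sex and by the interaction were 0 for the 10 genes in the 9 alternatives run for each and in the 11 fits that left out a library. Of the other 9 genes, Rel and Tnfaip3 kept a negative log2 fold change in all 23 fits, and the remaining 7, all within 0.21 of 0, changed sign in at least 1; the cause was not tested. Rel was at -0.03 in libraries numbered 2 or 3, a subset added after the data were seen. The spread between libraries of genes such as Tnip1 (standard error 0.52) limits what age differences could be seen.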
